A study of Mus musculus with 27 samples.

Results

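The respiratory chain genes described here are the genes on the array whose single symbol starts with Nduf, Uqcr or Atp5, is Sdha, Sdhb, Sdhc or Sdhd, or is Cox4 to Cox8 with a suffix, apart from the muscle and brown fat isoforms Cox7a1 and Cox8b. There were 87 such genes among the 19938 tested. By name, 36 belong to complex I, 7 are complex I assembly factors (Ndufaf), 4 belong to complex II, 8 to complex III, 15 to complex IV and 17 to complex V. The rule reads symbols only, so it takes in the Ndufaf factors, which are not subunits. It also places Ndufa4 in complex I, although its protein is now assigned to complex IV, and includes Ndufa4l2, a relative of Ndufa4. Without the Ndufaf genes and Ndufa4l2, 79 structural subunit genes remained.

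The respiratory chain sits in the inner mitochondrial membrane. Complex I takes electrons from NADH and complex II takes them from succinate, both pass them to ubiquinone, complex III hands them to cytochrome c, and complex IV reduces oxygen. Complexes I, III and IV pump protons, and complex V, the ATP synthase, makes ATP as the protons flow back. All subunits of complex II and most subunits of the others are encoded in the nucleus, the rest in mitochondrial DNA. Fat cells gain mitochondria as they form, and white adipocytes use them to supply citrate for fatty acid synthesis as well as ATP.

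RNA was taken from 3T3-L1, mouse fibroblasts that hormones can drive to become fat cells, and measured on 27 arrays in 9 groups of 3. Cells carried Flag-ISL1, a tagged LIM homeodomain transcription factor, and were taken at 0 and 48 h, or carried the empty pMIG retroviral vector and were taken at 0, 0.5, 1, 2, 4, 8 and 48 h. The 0 h cells were taken 2 days after confluence, before induction, in medium that also held 10% serum. All later cells were in medium with 10% fetal calf serum, 400 nM biotin, 250 nM of the glucocorticoid dexamethasone, 350 nM insulin and 0.5 mM of the phosphodiesterase inhibitor IBMX. All groups come from 1 cell line, and the arrays of a group are described by the submitters as biological triplicates, without saying whether each had its own infection. P-values therefore measure the spread between these arrays. The sources used here do not say which arrays were processed together, so time and any processing batch cannot be told apart.

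Values are log2 intensities after RMA, a difference of 1 is a 2-fold change, errors are standard errors of the limma fit with n = 3 arrays per group, and "higher" or "lower" means a Benjamini-Hochberg adjusted p under 0.05 over all 19938 genes. The number of arrays limits the precision of every value. Array quantiles were close but not identical (standard deviation over probe sets 2.204 to 2.298), and the smallest spread was that of replicate 2 of the 48 h arrays labelled ISL1.

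Isl1, the transgene, was read first. It measured 12.64, 12.62 and 12.61 in ISL1 cells at 0 h, against 7.37, 7.47 and 7.17 in vector cells at 0 h. At 48 h it ran against the labels: 12.79, 12.76 and 12.72 on the arrays labelled vector, against 7.48, 8.01 and 7.47 on those labelled ISL1. No array was moved to another group. The 48 h groups are called the high-Isl1 48 h arrays labelled vector and the low-Isl1 48 h arrays labelled ISL1, and each direction drawn from them rests on this signal. Fibroblast markers stood above the median gene in all groups (9 of 9 measured) and endothelial markers in none (0 of 7). Adipocyte markers, 15 genes, had a median level of 8.23 in ISL1 cells at 0 h and 10.76 in vector cells at 0 h, and of 11.43 on the high-Isl1 48 h arrays labelled vector and 12.66 on the low-Isl1 48 h arrays labelled ISL1. Lyz2, a myeloid lysozyme gene, measured 7.07 to 7.44 in ISL1 cells at 0 h and 6.66 to 7.65 on the 48 h arrays, against 12.03 to 12.10 in vector cells at 0 h, and the pan-leukocyte gene Ptprc had a 0 h difference of -0.14 ± 0.074 that did not pass the test. Of 8 macrophage markers measured, 3 stood above the median gene in vector cells at 0 h, 0 in ISL1 cells at 0 h and 1 in each 48 h group. Their median level hardly differed: 7.06 in vector and 7.01 in ISL1 cells at 0 h, and 6.78 (labelled vector) and 6.87 (labelled ISL1) at 48 h.

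The mean log2 value over the 87 genes changed little in vector cells during the early hours and was higher at 48 h. Its group means were 10.82, 10.78, 10.77, 10.84, 10.88 and 10.91 at 0, 0.5, 1, 2, 4 and 8 h. It was 11.10 ± 0.056 on the high-Isl1 48 h arrays labelled vector and 11.24 ± 0.081 on the low-Isl1 48 h arrays labelled ISL1 (SD, n = 3 each). In ISL1 cells at 0 h it was 10.96 ± 0.020, against 10.82 ± 0.032 in vector cells at 0 h (SD, n = 3 each). On the low-Isl1 48 h arrays labelled ISL1 complex III had the highest mean difference and complex IV the lowest: the mean stood 0.63 above vector cells at 0 h for complex III, 0.54 for complex II, 0.41 for complex I, 0.40 for complex V and 0.26 for complex IV. On the high-Isl1 48 h arrays labelled vector it stood 0.44 above for complex III, 0.29 for complex I, 0.25 for complex V, 0.22 for complex IV and 0.21 for complex II. A mean over probe sets gives each gene the same weight and is not an amount of protein complex. The complex IV mean includes the isoforms Cox4i2, Cox6a2, Cox6b2, Cox7b2 and Cox8c. None of these was called higher on the low-Isl1 48 h arrays labelled ISL1 than in vector cells at 0 h. They lower that mean, and the order of the complexes was not recomputed without them.

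**Figure D1:**
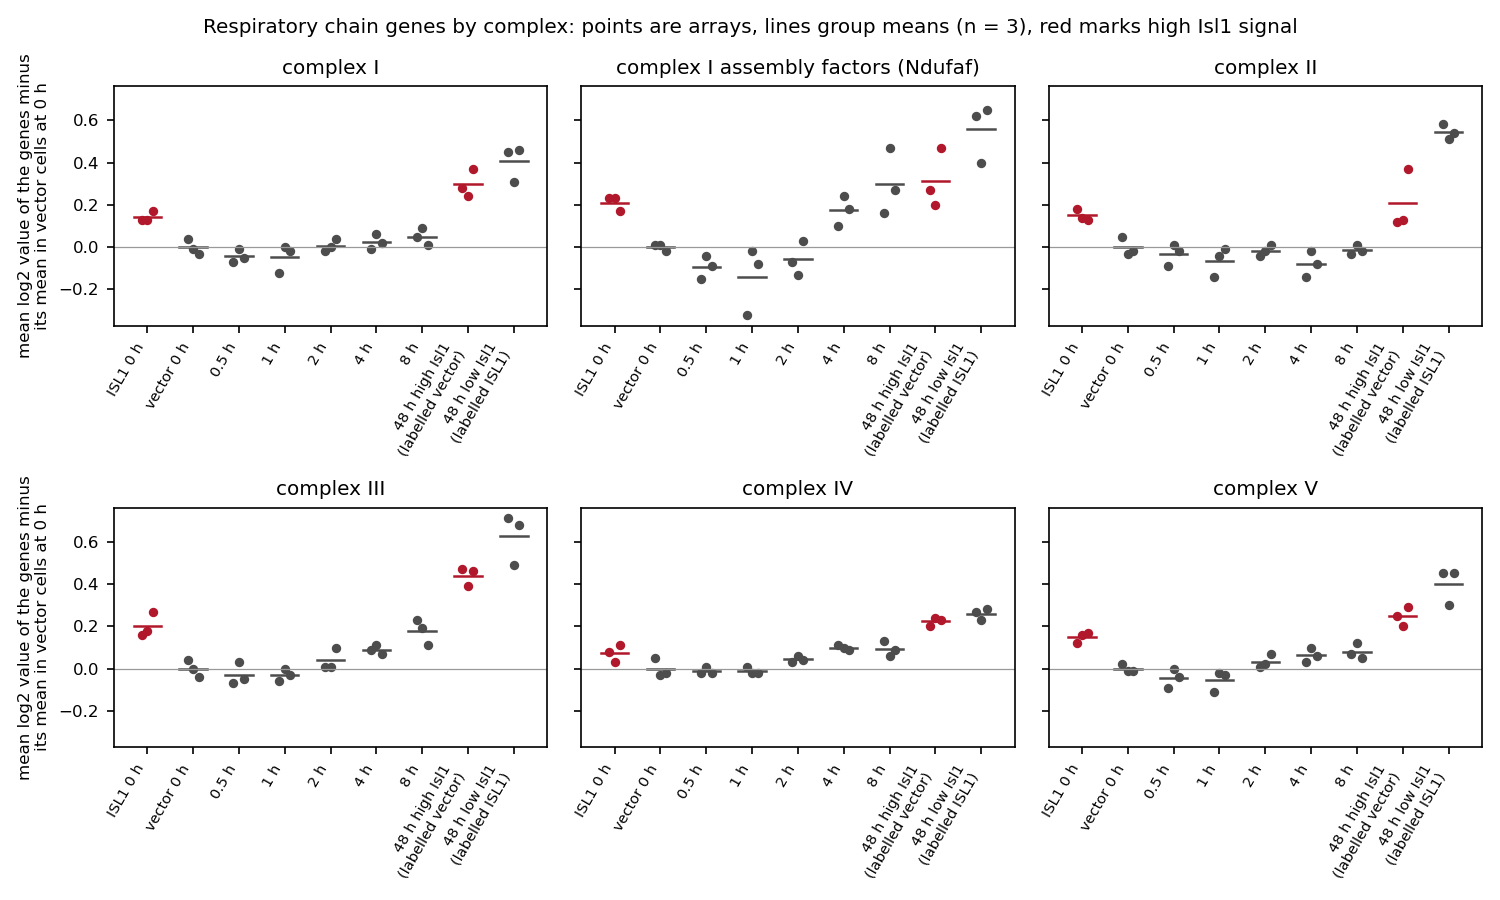
Mean log2 value of the genes of each complex, minus its mean in vector cells at 0 h, on each array (points) and per group (lines, n = 3), with red for groups with high Isl1 signal. From 0.5 to 8 h the means of complexes I, II, IV and V stay between -0.08 and 0.10, and the group mean of the low-Isl1 48 h arrays labelled ISL1 is the highest in all 6 panels, at 0.26 for complex IV and 0.63 for complex III.

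The course after induction in vector cells came next. Over 0 to 8 h, 39 of the 87 genes (44.8%) changed by the moderated F test, against 51.7% of all genes tested. All 7 Ndufaf genes were among them, and they included the 2 largest F values, those of Ndufaf4 (154.7) and Ndufaf3 (72.9), followed by the ATP synthase gene Atp5g1 (63.3). The smallest shares were those of complexes IV and V, with 4 of 15 and 5 of 17 genes. The smallest F values were those of Ndufa4l2 (0.3), Atp5j2 (0.4) and Uqcr11 (0.4), the last a small complex III subunit. Ndufa4l2 had a mean of 7.70 over all arrays, under the median gene at 8.28.

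In the first hour almost nothing passed the test. At 0.5 h 1 of 87 genes was lower and 0 were higher, against backgrounds of 0.502% and 0.777% of all genes, with 1 gene at an unadjusted p under 0.05. It was Ndufb10, a subunit of the membrane arm of complex I, which measured 8.36, 8.34 and 8.39 at 0.5 h, against 8.72, 8.64 and 8.65 at 0 h (-0.31 ± 0.076, adjusted p = 0.0344 by limma). The groups did not overlap, but the call was lost when any single array of either group was left out, with arrays centred on their medians and with an intensity trend. At 1 h 0 of 87 passed by limma, against 2.78% of all genes higher and 4.29% lower; 6 had an unadjusted p under 0.05, and 1 or 2 were lower under 4 of the other settings tried.

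At 2 h 5 genes were higher and 5 lower, against 10.9% and 17.5% of all genes. At 4 h 15 were higher and 11 lower, against 17.3% and 22.7%, and at 8 h 23 were higher and 9 lower, against 24.2% and 21.9%. The median log2 difference at 8 h was 0.08 over the 87 genes and 0.07 over all genes tested. Up to 8 h the shares of the respiratory chain genes called higher were therefore near or under the background. The split depends on the scaling, in its direction at 2 h and in its size at 4 and 8 h. With arrays centred on their medians it was 10 higher and 2 lower at 2 h and 28 higher and 5 lower at 4 h. Of all 19938 genes, 3537 were then higher and 2460 lower at 2 h, and 5804 and 3674 at 4 h. With quantile normalization the split was 7 and 13 at 2 h, 18 and 16 at 4 h and 19 and 17 at 8 h. All genes then gave 2657 and 3891 at 2 h, 3943 and 4871 at 4 h, and 5009 and 4869 at 8 h. The centred setting also shifted all genes, with higher genes making up 59.0% of calls at 2 h, 61.2% at 4 h and 64.8% at 8 h, against 38.4%, 43.3% and 52.5% without it. From 2 to 4 h 7 genes were higher and 5 lower (all genes 13.7% and 14.2%), and from 4 to 8 h 13 were higher and 4 lower (all genes 13.7% and 10.2%). That count of 13 was 6 with arrays centred on their medians, 5 in a fit to these groups alone and 5 without vector 4 h replicate 1, and the count of 4 was 2 in the fit to these groups alone, without vector 4 h replicate 2 or without vector 8 h replicate 3.

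Within complex I, the subunits that carry the electrons and the accessory subunits around them were set apart after their values were seen. Of the 6 core genes measured, 4 were lower at 4 h, against 22.7% of all genes. They were Ndufs3 (-0.19 ± 0.065), Ndufs7 (-0.19 ± 0.059), Ndufs8 (-0.27 ± 0.072) and Ndufv1 (-0.18 ± 0.058), the FMN-bearing subunit. Centring arrays on their medians left 0 of the 6 lower by limma, and quantile normalization gave 5. From 4 to 8 h Ndufs3 (0.24 ± 0.065) and Ndufs7 (0.19 ± 0.059) were higher again, while Ndufs8, an iron-sulphur subunit, measured 11.63, 11.46 and 11.39 at 8 h, against 12.01, 11.84 and 11.72 at 0 h (-0.36 ± 0.072, adjusted p = 0.000124 by limma). Among accessory subunits, Ndufab1, which is also the mitochondrial acyl carrier protein, measured 10.93, 10.82 and 10.85 at 8 h, against 10.40, 10.27 and 10.23 at 0 h (0.57 ± 0.084, adjusted p = 2.47e-06). Ndufa6 ran the other way, with 11.02, 11.02 and 10.80 at 8 h, against 11.57, 11.44 and 11.54 at 0 h (-0.57 ± 0.077, adjusted p = 6.84e-07). In both genes the 8 h arrays lay beyond all 0 h arrays, on opposite sides. Ndufs4, a late-assembled accessory subunit, was lower too (-0.46 ± 0.081), and Ndufa8 (0.51 ± 0.069) and Ndufa5 (0.42 ± 0.070) were higher.

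The 2 largest early changes were in assembly factors. Ndufaf3 and Ndufaf4 are known, from human cells, to bind each other and to act together early in complex I assembly, and their RNAs went in opposite directions. Ndufaf4 measured 8.27, 8.14 and 8.10 at 0 h, 8.91, 9.03 and 9.0 at 2 h, 9.69, 9.85 and 9.71 at 4 h, and 9.90, 10.01 and 9.97 at 8 h. Ndufaf3 measured 10.19, 10.09 and 10.02 at 0 h, 9.75, 9.76 and 9.87 at 2 h, 9.35, 9.30 and 9.24 at 4 h, and 8.95, 8.85 and 8.93 at 8 h. From 2 h on each array lay beyond all 0 h arrays in both genes, upward for Ndufaf4 and downward for Ndufaf3. At 8 h the differences from 0 h were 1.79 ± 0.094 (3.46-fold, adjusted p = 1.86e-14 by limma) for Ndufaf4 and -1.19 ± 0.078 (2.28-fold lower, adjusted p = 1.28e-12) for Ndufaf3. No other gene of the 87 passed both 2-fold and the test at that time.

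Ndufaf1, a factor of the assembly intermediate complex that also holds Ecsit and Acad9, dipped and came back. It measured 10.90, 11.03 and 11.10 at 0 h, 10.01, 9.96 and 10.24 at 2 h, 10.51, 10.64 and 10.68 at 4 h, and 11.03, 11.32 and 11.07 at 8 h. Its arrays at 2 h lay below those of every other time, with a difference from 0 h of -0.94 ± 0.098 (adjusted p = 2.04e-08 by limma), and from 4 to 8 h it was higher (0.53 ± 0.098). Ndufaf7, a methyltransferase acting on complex I in human cells, had a smaller dip at 2 h (-0.34 ± 0.110), Ndufaf2 (0.60 ± 0.119) and Ndufaf6 (0.53 ± 0.115) were higher at 8 h, and Ndufaf5 measured 0.12 above 0 h without passing the test. Of 8 further complex I assembly factors, 5 were higher at 8 h (all genes 24.2%), led by Ecsit (1.03 ± 0.092) and Acad9 (0.69 ± 0.079), and 2 were lower (all genes 21.9%), Tmem126b (-0.83 ± 0.149) and Nubpl (-0.31 ± 0.115).

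The 3 genes Atp5g1, Atp5g2 and Atp5g3 encode precursors of the same mature protein, the c subunit whose ring turns in the ATP synthase, and differ in their mitochondrial targeting sequences. In vector cells Atp5g1 measured 12.29, 12.09 and 12.01 at 0 h, 12.64, 12.60 and 12.57 at 4 h, and 13.12, 12.94 and 13.07 at 8 h. Atp5g2 measured 13.06, 13.03 and 13.07 at 0 h, 12.64, 12.72 and 12.64 at 4 h, and 12.54, 12.41 and 12.38 at 8 h. Atp5g1 thus rose and Atp5g2 fell, with no overlap between 8 h and 0 h arrays in either, by 0.92 ± 0.068 (adjusted p = 1.73e-11 by limma) and -0.61 ± 0.056 (adjusted p = 8.24e-10). Atp5g3 measured 12.57, 12.48 and 12.57 at 8 h, against 12.27, 12.08 and 12.10 at 0 h (0.39 ± 0.060, adjusted p = 5.65e-06). The 2 probe sets of Atp5g1 gave 0.88 and 0.92 at 8 h, and the 3 of Atp5g2 lay between -0.61 and -0.53. Probe sequences were not used here, so signal shared between near-identical transcripts was not tested.

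Atp5g1 and Atp5g2, and Ndufaf4 and Ndufaf3, moved in opposite directions within each pair, so their promoters are shown. Each is the 250 bases before the annotated transcription start in RefSeq on GRCm38.p6, 5′ to 3′ on the gene's strand. Capitals mark the E-box CACGTG in Atp5g1, which starts 44 bases before the start site, and the run made of GCATGCGC and its reverse complement, letters of the NRF1 motif, in Atp5g2 (42 bases before the start site) and Ndufaf4 (113 bases before it). In Ndufaf3 nothing is marked, as none of the letters listed below was found in this stretch. The short TGACG, found once in Atp5g1, was not marked. The windows are chr11:96075632-96075881 (minus strand), chr15:102671048-102671297 (minus strand), chr4:24897833-24898082 (plus strand) and chr9:108567437-108567686 (minus strand).
Atp5g1: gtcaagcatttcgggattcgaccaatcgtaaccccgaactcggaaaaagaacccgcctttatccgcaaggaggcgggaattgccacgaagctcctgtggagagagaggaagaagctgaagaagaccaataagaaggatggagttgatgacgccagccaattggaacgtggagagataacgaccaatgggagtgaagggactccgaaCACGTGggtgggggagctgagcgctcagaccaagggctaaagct
Atp5g2: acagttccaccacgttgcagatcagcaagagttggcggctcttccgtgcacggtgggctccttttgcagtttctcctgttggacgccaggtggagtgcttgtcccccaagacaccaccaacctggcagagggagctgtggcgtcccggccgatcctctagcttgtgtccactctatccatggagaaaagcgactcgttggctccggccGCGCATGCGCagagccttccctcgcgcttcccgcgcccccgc
Ndufaf4: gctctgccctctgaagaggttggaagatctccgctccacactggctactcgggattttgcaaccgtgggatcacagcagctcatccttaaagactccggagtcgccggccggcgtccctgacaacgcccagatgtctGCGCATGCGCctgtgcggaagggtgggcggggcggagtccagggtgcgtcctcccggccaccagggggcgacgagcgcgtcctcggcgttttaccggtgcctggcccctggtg
Ndufaf3: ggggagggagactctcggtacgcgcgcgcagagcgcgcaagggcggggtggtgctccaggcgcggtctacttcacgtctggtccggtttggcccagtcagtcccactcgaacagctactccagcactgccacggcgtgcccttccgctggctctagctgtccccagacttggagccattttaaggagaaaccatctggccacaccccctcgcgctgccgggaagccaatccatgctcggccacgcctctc
The falling Atp5g2 and the rising Ndufaf4 hold the same marked run. These letters do not show binding of any factor.

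Over the group, 71 of the 87 genes had a RefSeq window of 300 bases (250 before to 50 after the start), 76 windows in all, searched on both strands. The NRF1 letters GCATGCGC were in 15.8% of them and in 2.7% of all 32851 windows. The ETS letters CCGGAAG or ACTTCCG, which can overlap, were in 28.9% and 10.9%, the YY1 letters AAGATGGCG in 9.2% and 1.4%, and the ERR letters TCAAGGTCA in 2.6% and 0.4%. The CRE letters TGACGTCA were in 5.3% and 1.8%, and the shorter TGACG, which they contain, in 38.2% and 20.8%. The E-box CACGTG was in 9.2% and 7.2%, and TATAAA in 10.5% and 13.6%. These shares are descriptions of letters in the windows, without a test, and windows of a gene can overlap.

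In the other complexes single genes moved early. Cox5a, a nuclear subunit of complex IV, measured 10.29, 10.15 and 10.08 at 0 h, 10.65, 10.47 and 10.62 at 2 h, 10.89, 10.92 and 10.88 at 4 h, and 10.89, 11.21 and 10.95 at 8 h. It lay above all 0 h arrays from 2 h on, with 0.84 ± 0.084 at 8 h (adjusted p = 3.92e-09 by limma), while the only other complex IV gene higher at 8 h was Cox5b (0.18). In complex III 5 of 8 genes were higher at 8 h, against 24.2% of all genes. Among them were Uqcrfs1, the Rieske iron-sulphur protein (0.47 ± 0.086), and Uqcrh, the hinge protein (0.32). Quantile normalization gave 3 higher and 1 lower. Complex II was split at 8 h: Sdhd, a membrane anchor, was higher (0.37 ± 0.076), and Sdha, the flavoprotein (-0.22 ± 0.073), and Sdhc, the other anchor (-0.18 ± 0.073), were lower, the last 2 not with arrays centred on their medians.

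**Figure D2:**
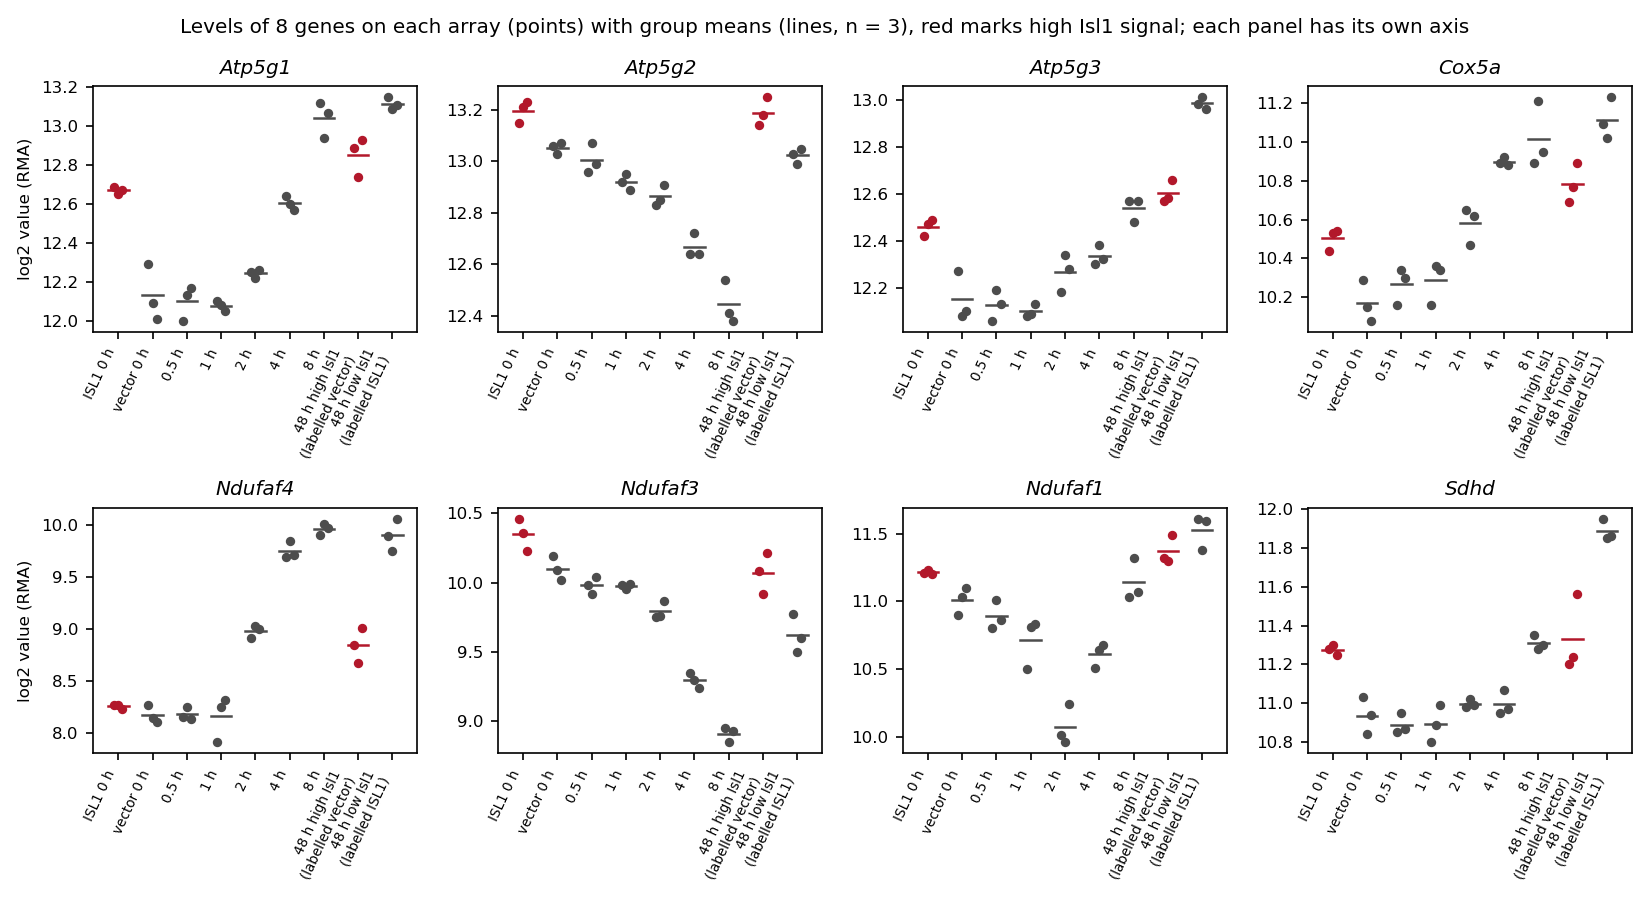
Log2 value of 8 genes on each array (points) with group means (lines, n = 3), red for groups with high Isl1 signal. Over 0 to 8 h in vector cells Atp5g1, Atp5g3, Cox5a and Ndufaf4 go up, Atp5g2 and Ndufaf3 go down, and Ndufaf1 has its lowest values at 2 h, 9.96 to 10.24.

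At 48 h most respiratory chain genes were higher. On the low-Isl1 48 h arrays labelled ISL1, 69 of 87 genes were higher and 3 lower than in vector cells at 0 h, against 21.3% and 20.0% of all genes tested. The median log2 difference was 0.43, against 0.06 over all genes. By complex, 30 of 36 complex I genes, 5 of 7 Ndufaf genes, 4 of 4 complex II genes, 7 of 8 complex III genes, 9 of 15 complex IV genes and 14 of 17 complex V genes were higher. The count was 69 higher with arrays centred on their medians, 67 with quantile normalization, and 69 without replicate 2 of the 48 h arrays labelled ISL1, the array with the smallest spread. Adipocyte markers moved with this result, with 14 of 15 higher and a median log2 difference of 1.52, and fibroblast markers were lower (9 of 9 measured). Lyz2, from the list of 8 macrophage markers measured, was lower by 4.49 on the log2 scale, while the median level of that list was 6.87 against 7.06. Their part in the result was not tested, and in bulk RNA fewer cells of a type and less RNA per cell cannot be told apart.

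The largest differences were in genes of several complexes. Ndufaf4 measured 9.89, 9.75 and 10.06 on the low-Isl1 48 h arrays labelled ISL1, against 8.27, 8.14 and 8.10 in vector cells at 0 h (1.73 ± 0.094, adjusted p = 3.33e-14 by limma). Ndufab1 measured 11.50, 11.22 and 11.56 on the low-Isl1 48 h arrays labelled ISL1, against 10.40, 10.27 and 10.23 in vector cells at 0 h (1.13 ± 0.084, adjusted p = 1.54e-11). Uqcrfs1 measured 10.58, 10.28 and 10.63 on the low-Isl1 48 h arrays labelled ISL1, against 9.53, 9.56 and 9.31 in vector cells at 0 h (1.03 ± 0.086, adjusted p = 1.44e-10). These 3 genes passed 2-fold, and in each the 48 h arrays lay above all 0 h arrays. Atp5g1 (0.99 ± 0.068), Sdhd (0.95 ± 0.076), Cox5a (0.94 ± 0.084), Atp5g3 (0.83 ± 0.060) and the core subunit Ndufs1 (0.83 ± 0.103) came next. In complex II, Sdhb (0.47 ± 0.077), Sdhc (0.47 ± 0.073) and Sdha (0.29 ± 0.073) were higher beside Sdhd, and in complex III so were the core proteins Uqcrc1 (0.53 ± 0.062) and Uqcrc2 (0.61 ± 0.057). Among the complex V genes of the catalytic part of the enzyme, Atp5a1 had 0.55 ± 0.056 and Atp5b 0.24 ± 0.051. The small membrane subunit Atp5l had 0.71 ± 0.124. Lower were Ndufaf3 (-0.48 ± 0.078), Cox6a2, the heart and muscle isoform (-0.41 ± 0.098), and Ndufs4 (-0.21 ± 0.081), the last no longer past the test under 3 settings and without any of 5 arrays in turn.

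Much of this difference was there against 8 h too. On the low-Isl1 48 h arrays labelled ISL1, 61 of 87 genes were higher and 0 lower by limma than in vector cells at 8 h, against 15.7% and 14.9% of all genes, with 65 genes at an unadjusted p under 0.05 in either direction. Median centring, quantile normalization and a filter on dim genes each gave 1 lower. All 4 complex II genes and all 6 core complex I genes were higher, Sdhc by 0.65 ± 0.073 and Ndufs1 by 0.66 ± 0.103. Genes that had fallen by 8 h stood higher again, among them Ndufaf3 (0.71 ± 0.078), Ndufa6 (0.65 ± 0.077) and Atp5g2 (0.58 ± 0.056). Of genes already higher at 8 h, Ndufaf4 differed by -0.06, Atp5g1 by 0.07 and Cox5a by 0.10, and these 3 did not pass the test.

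**Figure D3:**
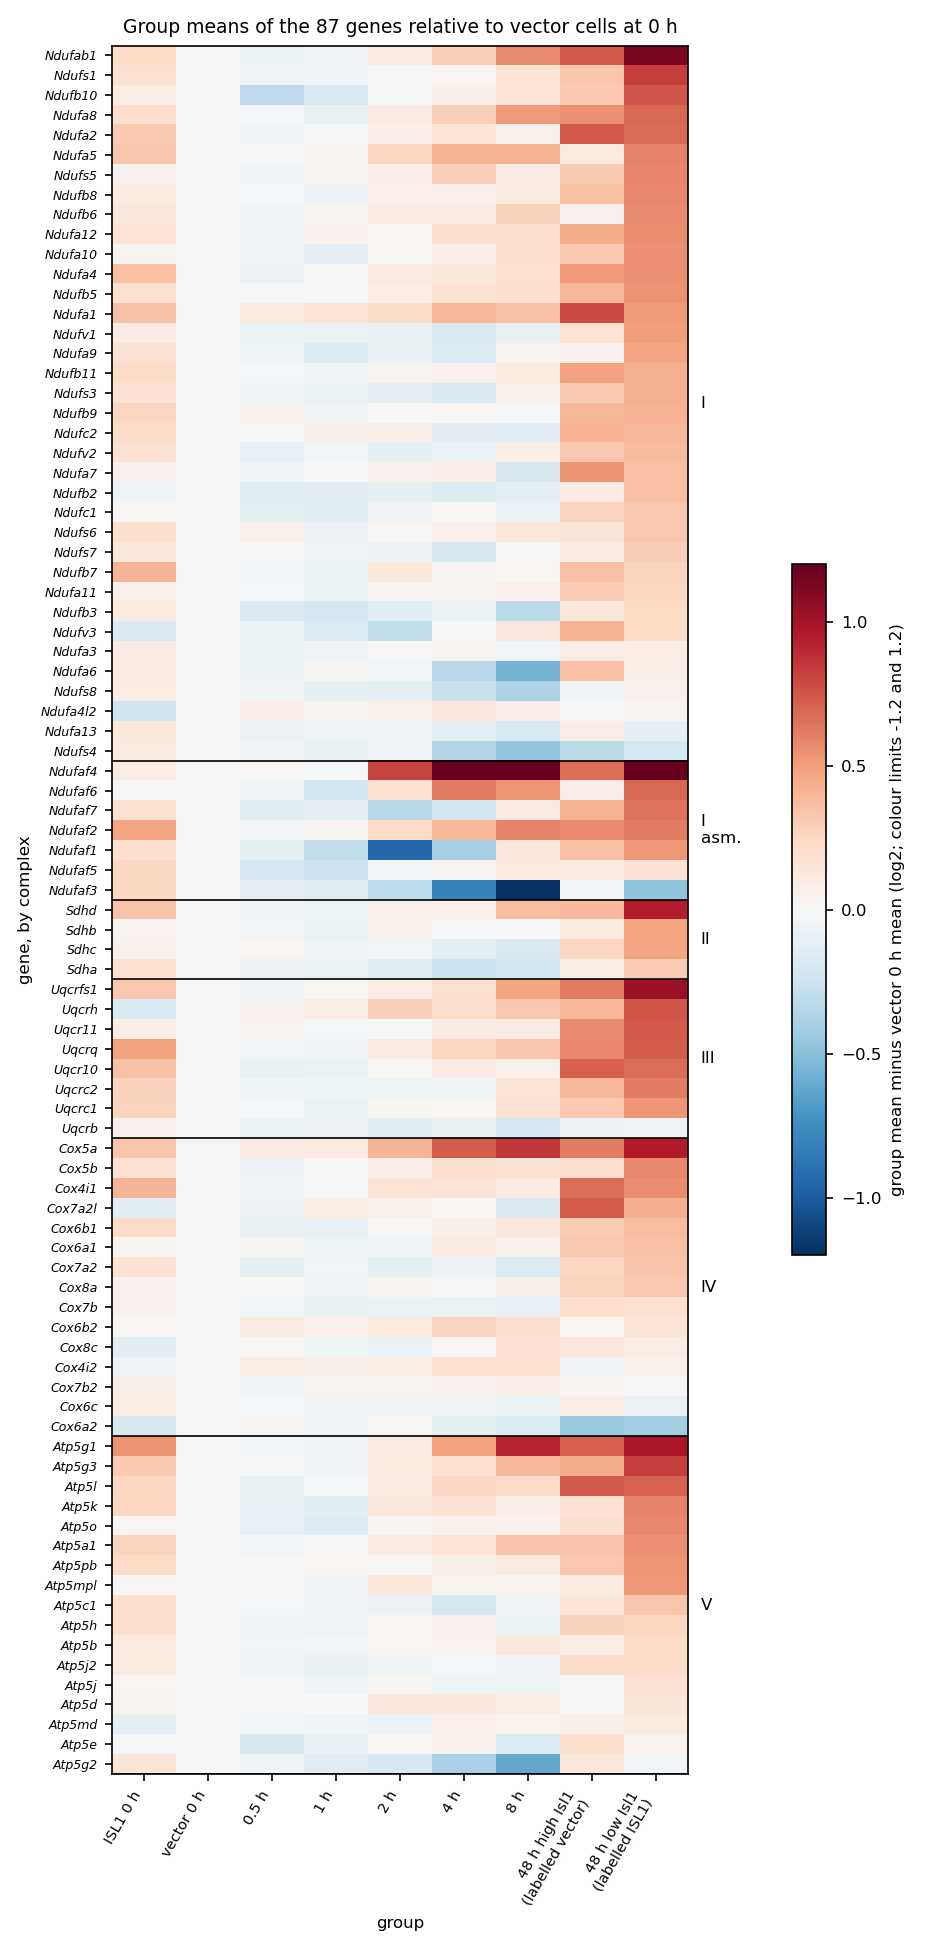
Group mean of each of the 87 genes minus its mean in vector cells at 0 h (log2), by complex and, within a complex, by the value on the low-Isl1 48 h arrays labelled ISL1; columns are the 9 groups and colours stop at -1.2 and 1.2. The right-hand column is mostly red (69 genes higher, 3 lower), and Ndufaf4, at 1.79 at 8 h and 1.73 in that column, lies beyond the colour limit.

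Isoforms of 1 subunit had unequal values at 48 h. The widely expressed forms Cox4i1 (0.56), Cox6a1 (0.36), Cox6b1 (0.38), Cox7a2 (0.34), Cox7b (0.18) and Cox8a (0.32) were higher on the low-Isl1 48 h arrays labelled ISL1 than in vector cells at 0 h. Their relatives Cox4i2 (0.06), Cox6b2 (0.15), Cox7b2 (0.00) and Cox8c (0.10), known mainly from lung or testis, did not pass the test, and Cox6a2 was lower. Cox4i2, Cox6b2, Cox7b2 and Cox8c were dim, with means of 7.97, 7.37, 5.60 and 7.98 over all arrays, against 8.28 for the median gene. Cox6a2 had 8.69. A missing call at such levels does not show that an isoform was unchanged. The 2 probe sets of Cox7b were the least alike of any member, 0.25 apart. Ndufa4 was higher (0.55), and Ndufa4l2, known as a hypoxia-induced gene and also dim (mean 7.70), was not called (0.03). Cox7a2l, which links complexes III and IV in supercomplexes, was higher (0.44, with its 2 probe sets at 0.26 and 0.44). Atp5g2 stood at -0.03 beside the higher Atp5g1 and Atp5g3.

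The same span of time was read in cells with high Isl1. On the high-Isl1 48 h arrays labelled vector, 29 of 87 genes were higher and 4 lower than in ISL1 cells at 0 h, against 14.2% and 19.0% of all genes, with a median log2 difference of 0.14 against 0.03 over all genes. Cox7a2l measured 10.38, 10.21 and 10.47 on these arrays, against 9.51, 9.45 and 9.47 in ISL1 cells at 0 h (0.88 ± 0.085, adjusted p = 3.15e-09 by limma), so that the groups were well apart. Next came Ndufv3 (0.60 ± 0.088), Uqcrh (0.58 ± 0.081) and Ndufaf4 (0.58 ± 0.094). Lower were Ndufs4 (-0.43 ± 0.081), Ndufaf3 (-0.28 ± 0.078), Cox6a2 (-0.26 ± 0.098) and Ndufa5 (-0.21 ± 0.070). Adipocyte markers were higher here as well, 15 of 15 with a median of 1.22, and 7 of 9 fibroblast markers were lower, with a median of -0.36. Their part in the result was not tested. Read by the labels instead, the arrays labelled vector gave 52 higher and 2 lower than vector cells at 0 h (all genes 18.1% and 18.7%), and those labelled ISL1 gave 52 higher and 5 lower than ISL1 cells at 0 h (all genes 20.9% and 22.2%).

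ISL1 and vector cells differed before induction. In ISL1 cells at 0 h, 28 of 87 genes were higher and 0 lower by limma than in vector cells at 0 h, against 15.3% and 10.4% of all genes, with 42 genes at an unadjusted p under 0.05 in either direction. Quantile normalization gave 30 higher and 3 lower, and a fit to these groups alone gave 1 lower. The median log2 difference was 0.14, against -0.01 over all genes, and 5 of 8 complex III genes, 6 of 17 complex V genes and 10 of 36 complex I genes were higher. Atp5g1 measured 12.69, 12.65 and 12.67 in ISL1 cells, against 12.29, 12.09 and 12.01 in vector cells (0.54 ± 0.068, adjusted p = 5.96e-07 by limma). Uqcrq, a small complex III subunit (0.48 ± 0.101), Ndufaf2 (0.47 ± 0.119), Cox4i1 (0.41 ± 0.071) and Ndufb7 (0.41 ± 0.078) followed, all with ISL1 arrays above every vector array. Adipocyte markers went the other way, with 15 of 15 lower in ISL1 cells at 0 h and Adipoq, the adipokine gene, at -4.20 ± 0.113. Lyz2, from the list of 8 macrophage markers measured, was lower by 4.84 on the log2 scale, while the median level of that list was 7.01 against 7.06. Their part in the result was not tested. The vector 0 h arrays serve in this comparison and in every comparison with vector cells at 0 h above.

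**Figure D4:**
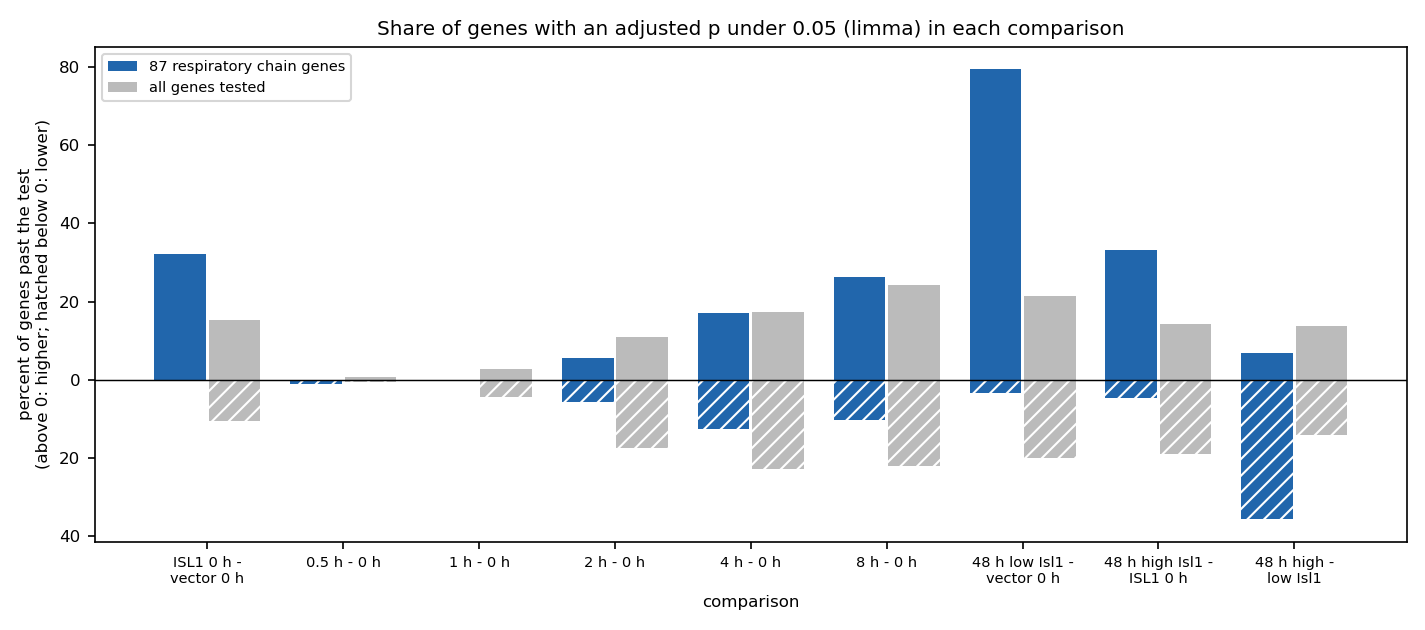
Percent of the 87 respiratory chain genes (blue) and of all genes tested (grey) with an adjusted p under 0.05 by limma in 9 comparisons, higher above 0 and lower (hatched) below 0. For higher genes, the blue bars stand well above the grey ones in ISL1 cells at 0 h (28 of 87) and in both 48 h against 0 h comparisons (69 and 29 of 87), and for lower genes in the high against low Isl1 comparison at 48 h (31 of 87).

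At 48 h the direction between high and low Isl1 was the opposite. On the high-Isl1 48 h arrays labelled vector, 6 of 87 genes were higher and 31 lower than on the low-Isl1 48 h arrays labelled ISL1, against 13.8% and 14.0% of all genes. The median log2 difference was -0.13, against -0.03 over all genes. With replicate numbers as a block the counts were 6 and 32, and with the 48 h groups alone and the block, a setting added after the data were seen, 4 and 25. A fit to the 48 h groups alone without the block gave 1 higher and 19 lower. Without replicate 2 of the arrays labelled ISL1 they were 2 and 32, and without replicate 3 of the arrays labelled vector 2 were higher. Complex II (4 of 4 lower) and complex V (10 of 17 lower) held the largest shares, and in complex IV 2 of 15 were lower and 2 higher.

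Ndufaf4 had the largest difference. It measured 8.84, 8.67 and 9.01 on the high-Isl1 48 h arrays labelled vector, against 9.89, 9.75 and 10.06 on the low-Isl1 48 h arrays labelled ISL1 (-1.06 ± 0.094, adjusted p = 1.49e-09 by limma). Sdhd measured 11.20, 11.24 and 11.56 on the high-Isl1 48 h arrays labelled vector, against 11.95, 11.85 and 11.86 on the low-Isl1 48 h arrays labelled ISL1 (-0.55 ± 0.076, adjusted p = 2.06e-06). Replicate 3 of the arrays labelled vector was the highest of its group in both genes, and the groups still did not overlap. Sdhb, the iron-sulphur subunit (-0.36 ± 0.077), Sdhc (-0.22 ± 0.073) and Sdha (-0.21 ± 0.073) were lower with smaller differences. Ndufaf6 (-0.60 ± 0.115), Ndufb6 (-0.52 ± 0.067), Ndufs1 (-0.49 ± 0.103) and Ndufa5 (-0.48 ± 0.070) were the other large falls. The 6 higher genes were Ndufaf3 (0.45 ± 0.078), Cox7a2l (0.29 ± 0.085), Ndufa6 (0.26 ± 0.077), Ndufa13 (0.19 ± 0.061), Cox6c (0.17 ± 0.052) and Atp5g2 (0.17 ± 0.056), with overlapping arrays in Cox7a2l. Adipocyte markers were lower, 15 of 15 with a median of -1.16, and their part in the result was not tested.

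Whether the difference between high and low Isl1 was unequal at 48 h and 0 h was tested as an interaction. This is the high minus low Isl1 difference at 48 h minus the ISL1 minus vector difference at 0 h. It equals the 48 h minus 0 h difference with high Isl1 minus the same difference with low Isl1. It was positive in 2 of 87 genes and negative in 38 past the test, against 11.4% and 13.2% of all genes, with a median of -0.27 against -0.02. The largest were Ndufaf4 (-1.15 ± 0.134), Sdhd (-0.89 ± 0.107), Ndufa5 (-0.81 ± 0.099), Atp5g1 (-0.80 ± 0.097), Uqcrfs1 (-0.73 ± 0.122) and Cox5a (-0.66 ± 0.119), and the positive ones Cox7a2l (0.43 ± 0.120) and Ndufv3 (0.35 ± 0.124). A negative value need not be a reversal of direction, and reversals were not counted. Ndufaf4 had means of 8.26 in ISL1 and 8.17 in vector cells at 0 h, so its value came mainly from 48 h. Ndufa5 did reverse: it measured 9.11, 9.09 and 9.20 in ISL1 cells at 0 h, against 8.74, 8.82 and 8.84 in vector cells at 0 h. At 48 h it measured 8.89, 8.87 and 9.0 on the high-Isl1 arrays labelled vector, against 9.45, 9.36 and 9.38 on the low-Isl1 arrays labelled ISL1. The high-Isl1 arrays thus lay above all low-Isl1 arrays at 0 h and below them at 48 h. The result depends on reading the 48 h arrays by Isl1 signal: taken by label it was positive in 9 and negative in 15 genes (all genes 12.7% and 16.3%).

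**Figure D5:**
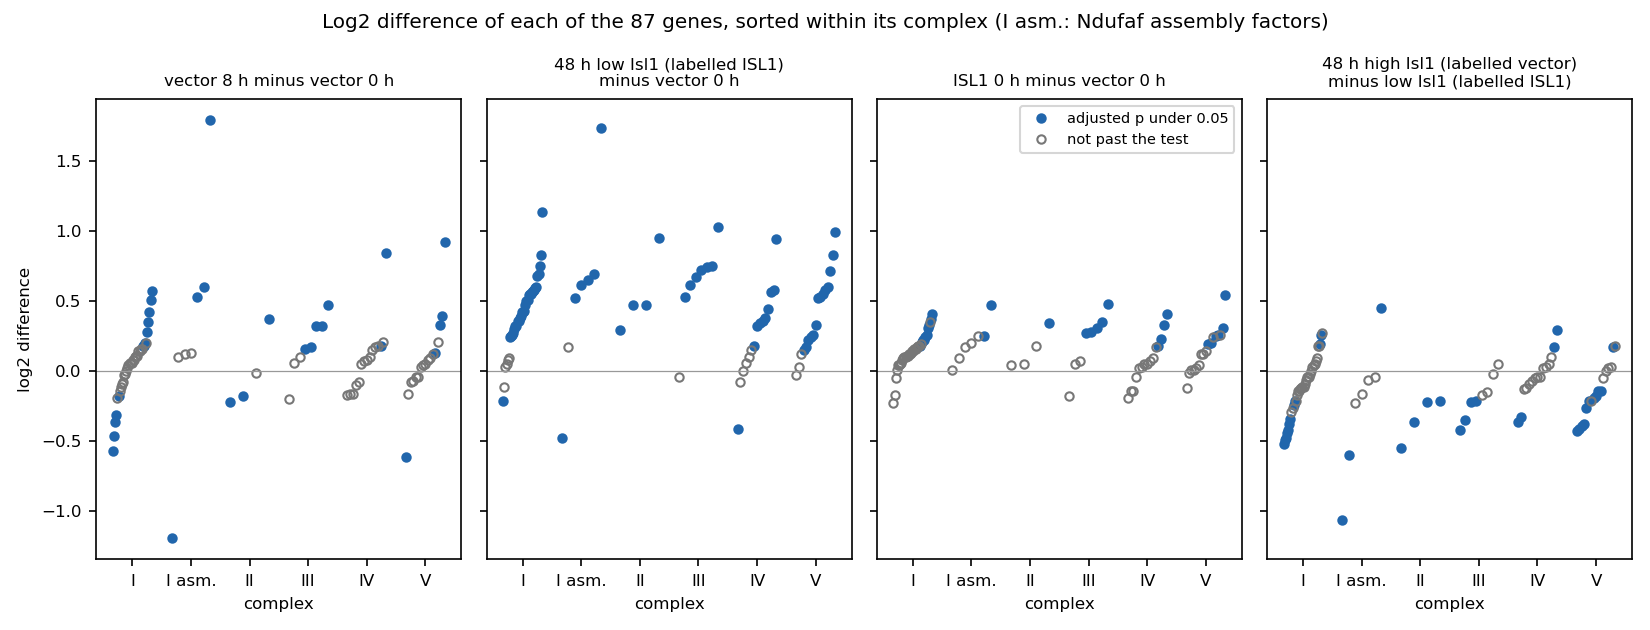
Log2 difference of each of the 87 genes in 4 comparisons, sorted within its complex, filled where the adjusted p was under 0.05 by limma. In the second panel 69 filled points lie above 0 and 3 below, in the third all 28 filled points lie above 0, and in the fourth 31 filled points lie below 0 and 6 above.

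Genes that supply or regulate the chain were counted from lists written from general knowledge. Over all genes tested, 24.2% were higher and 21.9% lower at 8 h than at 0 h in vector cells, 21.3% were higher and 20.0% lower on the low-Isl1 48 h arrays labelled ISL1 than in vector cells at 0 h, and 14.0% were lower with high than with low Isl1 at 48 h. The tricarboxylic acid cycle list also holds Pcx, Pdha1, Pdhb and Dlat, whose enzymes act on pyruvate ahead of the cycle. Of its 17 genes measured, 12 were higher and 2 lower at 8 h than at 0 h in vector cells. On the low-Isl1 48 h arrays labelled ISL1, 17 were higher than in vector cells at 0 h. Pcx, the pyruvate carboxylase gene, had 2.29 ± 0.076 there and Idh3a, a catalytic subunit of NAD-dependent isocitrate dehydrogenase, 1.60 ± 0.068. Of 19 carrier and import genes, 15 were higher and 2 lower at 8 h, led by the import receptor Tomm70a (1.34 ± 0.080) and the chaperonin Hspd1 (1.22 ± 0.065), and 16 were higher at 48 h. Of 15 electron carrier genes (cytochrome c, ubiquinone synthesis and electron transfer flavoprotein), 4 were higher at 8 h, a share near that of all genes, and 2 lower, and 12 were higher at 48 h, among them Coq3 (1.26 ± 0.111), an enzyme of ubiquinone synthesis. In the high against low Isl1 comparison at 48 h, 12 of the 17 genes of the cycle list, 12 of the 19 carrier and import genes and 8 of the 15 electron carrier genes were lower. Differences between lists were not tested.

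Of 20 complex IV assembly factors, 11 were higher and 3 lower at 8 h (all genes 24.2% and 21.9%), with Higd1a highest (1.86 ± 0.139) and Coa3 lowest (-0.98 ± 0.103), and 16 were higher and 2 lower on the low-Isl1 48 h arrays labelled ISL1 (all genes 21.3% and 20.0%). Cyc1, the cytochrome c1 gene of complex III whose name the symbol rule does not reach, was higher at 8 h (0.55 ± 0.079) and at 48 h (1.01 ± 0.079). Of the mitochondrially encoded subunits only COX2 and ND3 had a probe set with a single symbol here, and both were lower at 8 h with overlapping arrays (-0.30 ± 0.093 for COX2 and -0.27 ± 0.085 for ND3). COX2 was also lower on the low-Isl1 48 h arrays labelled ISL1 (-0.27 ± 0.093), where nuclear genes were mostly higher.

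Of 22 regulators of respiratory genes, 10 were higher and 6 lower at 8 h (all genes 24.2% and 21.9%), and 11 were higher and 1 lower on the low-Isl1 48 h arrays labelled ISL1 (all genes 21.3% and 20.0%), both against vector cells at 0 h. Myc, a growth transcription factor, measured 12.39, 12.47 and 12.47 at 1 h, against 9.59, 9.64 and 9.30 at 0 h, and its difference was still 3.08 ± 0.079 at 8 h. Among coactivators of the PGC-1 family, Pprc1 was higher at 8 h (0.91 ± 0.077) and Ppargc1a lower (-0.75 ± 0.103), and Ppargc1b was higher at 48 h (1.42 ± 0.118). Ppargc1a measured 8.27, 8.13 and 8.25 in ISL1 cells at 0 h, against 9.82, 9.85 and 9.80 in vector cells at 0 h (-1.61 ± 0.103, adjusted p = 3.34e-12 by limma). In the same comparison 28 respiratory chain genes were higher, and any link to Ppargc1a was not tested. At 48 h Ppargc1a was lower on the high-Isl1 arrays labelled vector than on the low-Isl1 arrays labelled ISL1 (-1.93 ± 0.103), as was Ppargc1b (-1.13 ± 0.118). Gabpa, the ETS factor that binds many of these promoters, was lower at 8 h (-0.68 ± 0.082), Esrra was higher (0.26 ± 0.064), and Nrf1 (0.07) and Tfam (0.12) did not pass the test.

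Across the 9 groups, the genes whose group means followed the median profile of the others most closely were Ndufb8 (Pearson r = 0.99), Ndufb5 (0.97) and Atp5pb (0.96). Least alike were Ndufs4 (-0.28), Cox4i2 (-0.32) and Cox6a2 (-0.92). Cox4i2 (mean 7.97 over all arrays) and Cox6a2 (8.69) lay near the median gene, at 8.28. The groups share probe sets and array normalization, and the values are descriptions over 9 group means without a test. Ndufb8, which followed the profile, stood 0.58 higher, and Cox6a2 was lower by 0.41 on the low-Isl1 48 h arrays labelled ISL1 than in vector cells at 0 h.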

How the data were processed

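Total RNA was measured on 27 single-channel Affymetrix mouse gene arrays, 3 in each of 9 groups taken from the labels. The authors deposited 1 table of log2 intensities for 28853 probe sets, made with RMA per the submitters' processing notes, with the software version not given in the sources used here. Values ran from 3.35 to 14.85 with 0 missing, and 0 columns were left unmapped. Probe sets with 1 gene symbol in the platform annotation were kept (21789, against 1621 with several and 5443 with none), and for 999 genes with more than 1 the probe set with the highest mean was used, giving 19938 genes. For the 17 respiratory chain genes concerned, probe sets gave differences at most 0.25 apart.

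A limma 3.58.1 fit (R 4.3.3) with 1 mean per group over all 27 arrays and empirical Bayes moderation (6.56 prior degrees of freedom) gave each difference, adjusted by Benjamini-Hochberg over all genes. The fit was tested on simulated data. Tables and figures were made with Python 3.11.15, pandas 2.3.3, numpy 2.4.6 and matplotlib 3.10.9. The members and lists were chosen with earlier results of these data known, so they carry no independent support, and comparisons that use the same 0 h arrays share their error. Named were all isoform pairs, Sdh genes, the largest rises and falls of each comparison with no overlap of arrays, those of each complex with or without overlap, and the extremes of the F test and of each other list. Other names, such as the core subunits, were chosen after their values were seen.

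Replicate numbers come from the labels and are not said to mark a shared culture. Of 36 pairs of groups, 4 had all 3 correlations of same-numbered deviations over 0.1, the 48 h pair among them (0.314, 0.547 and 0.217), so only there the block is given beside the result. Alternatives were median centring, quantile normalization, the mean of probe sets, a filter on dim genes, an intensity trend, the replicate block, only the groups compared, structural subunits only, the 48 h labels as given, and leaving out each array.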

Additional observations from a re-analysis of the deposited data

Results flagged for a closer look

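The difference between high and low Isl1 signal was not the same at 48 h and at 0 h, by the interaction term of the limma fit. The difference at 48 h minus that at 0 h was positive in 2 of the 87 genes and negative in 38, against 11.4% and 13.2% of all genes. Among the named genes it was -1.15 for Ndufaf4, -0.89 for Sdhd, -0.81 for Ndufa5, -0.80 for Atp5g1, -0.73 for Uqcrfs1 and -0.66 for Cox5a, and 0.43 for Cox7a2l and 0.35 for Ndufv3. The call of Ndufv3 was lost in 9 of the alternatives. With the 48 h labels taken as given, the interaction was positive in 9 genes and negative in 15 (all genes 12.7% and 16.3%). The result thus depends on reading the 48 h arrays by Isl1 signal. Adipocyte markers were lower with high Isl1 at both times (15 of 15 each), and their part in these differences was not tested.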

How the results depend on the processing

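Of 467 recomputed counts of called genes, 404 stayed within 1.5 times the reported count and 63 did not. Of 1738 recomputed values of named genes, 119 lost the call and 0 changed direction, and of 202 recomputed medians 2 moved, to 0.10 at 2 h and 0.14 at 4 h with arrays centred on their medians. These values and medians do not include the 48 h labels taken as given, which were applied to counts only. That reading turns the sign of every difference between the 48 h groups. The cause of each change below was not tested.

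Centring gave 0 genes lower at 0.5 h, 10 higher and 2 lower at 2 h, 28 higher and 5 lower at 4 h, and 6 higher from 4 to 8 h. Over all 19938 genes centring gave 93 lower at 0.5 h and 3537 higher and 2460 lower at 2 h. It gave 5804 and 3674 at 4 h, and 2084 higher from 4 to 8 h. It also gave 1 lower on the low-Isl1 48 h arrays labelled ISL1 against 8 h, 2 lower on the high-Isl1 48 h arrays labelled vector against ISL1 0 h, and 3 lower on the arrays labelled ISL1 against ISL1 0 h. Quantile normalization gave 2 lower at 1 h, 13 at 2 h, 17 at 8 h, 1 for low-Isl1 48 h against 8 h and 3 in ISL1 cells at 0 h, and an interaction positive in 4. Over all genes it gave 1194 lower at 1 h, 3891 at 2 h and 4869 at 8 h. The matching counts were 3409 for low-Isl1 48 h against 8 h, 2909 in ISL1 cells at 0 h and 3062 positive interactions. The intensity trend gave 0 lower at 0.5 h and 2 at 1 h, and the filter on dim genes gave 1 lower at 1 h and 1 for low-Isl1 48 h against 8 h. Structural subunits alone had 2 lower at 2 h and 4 higher from 2 to 4 h.

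A fit to the compared groups only gave 5 higher and 2 lower from 4 to 8 h, 1 lower in ISL1 cells at 0 h, 1 higher and 19 lower for high against low Isl1 at 48 h, and 1 positive interaction. With 48 h labels taken as given, 52 genes were higher in ISL1 cells at 48 h than at 0 h, 31 were higher and 6 lower in ISL1 than in vector cells at 48 h, and the interaction was positive in 9 and negative in 15. The replicate block gave 1 lower at 1 h, and 6 higher and 32 lower for high against low Isl1 at 48 h, and it moved no other count by over 1.5 times.

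Leaving out 1 array at a time gave 0 lower at 0.5 h for each of the 6 arrays, and 3 to 6 higher and 3 to 5 lower at 2 h, with 3 higher and 3 lower without vector 2 h replicate 2 and 3 lower without vector 0 h replicate 2. From 4 to 8 h it gave 5 to 11 higher and 2 to 5 lower, with 5 higher without vector 4 h replicate 1, and 2 lower without vector 4 h replicate 2 or 8 h replicate 3. Low-Isl1 48 h against 8 h had 0 to 2 lower, with 1 without replicate 3 of the arrays labelled ISL1 and 2 without vector 8 h replicate 2. High-Isl1 48 h against ISL1 0 h had 2 to 3 lower, with 2 without ISL1 0 h replicate 1 or 3, or without replicate 1 or 2 of the arrays labelled vector. The arrays labelled ISL1 against ISL1 0 h had 3 to 6 lower, with 3 without their replicate 2. ISL1 cells at 0 h had 0 to 1 lower, with 1 without vector 0 h replicate 1. High against low Isl1 at 48 h had 2 to 6 higher, and the interaction was positive in 1 to 2, with 1 without any of 8 arrays.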
